A study of Homo sapiens with 12 samples.

Results

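The response of wild-type HCT116 cells to 4 h of camptothecin (CPT) was examined by comparing 3 arrays of treated cells with 3 arrays of cells given the solvent DMSO, which are 6 of the 12 arrays in the series. The samples were taken by their titles, and arrays with the same replicate number form a pair. HCT116 is a human colon cancer cell line, and all 6 arrays hold RNA of its ATF3-wildtype (WT) form, grown in McCoy's 5A medium with serum and given either DMSO or 1.5 µM CPT. The other 6 arrays hold the ATF3-knockout (KO) line, which is a single clone named E11, given the same agents for the same time. Whether the numbered replicates came from separate cultures is not stated in the labels. The p-values reflect the scatter among these 6 arrays and their KO counterparts, and that scatter may be technical. RNA was hybridized to Illumina HumanHT-12 v4 BeadChips, on which each gene is read by 1 or more probes, and 10464 genes passed a filter on dim probes.

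CPT is a plant alkaloid that traps topoisomerase I, the enzyme that relaxes supercoiled DNA by nicking a single strand, in a complex with the cut DNA. Elongating RNA polymerase II and replication forks run into these complexes, which halts transcription within gene bodies and gives rise to double-strand breaks in S phase. The breaks activate checkpoint kinases and stabilize p53, and HCT116 cells are known to carry p53 of the normal sequence. The ATF3 protein, a bZIP transcription factor, is a known product of the stress response.

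The arrays of DMSO-treated WT cells detected 15399 to 16823 probes (detection p below 0.01) and those of CPT-treated cells 13713 (replicate 2) to 15501. The mean over replicate 1 was 16063.8 probes over the 4 groups, against 14813.5 and 14762.5 in replicates 2 and 3. Median raw signal lay between 98.9 and 106.8. Log2 values correlated at 0.963 to 0.982 within the DMSO arrays, at 0.938 to 0.977 within the CPT arrays and at 0.898 to 0.935 between these groups. Of 14 colon epithelium markers, 8 were detected on all 6 WT arrays, among them EPCAM, CDH1, CDX2 and the keratins KRT8, KRT18 and KRT19. CDH17, VIL1, KRT20, CEACAM5 and LGALS4, markers of differentiated colon cells, were detected on none. Of 11 markers of other cell types, 6 were detected on none of the arrays (PTPRC, CD3E, HBB, PECAM1, COL3A1 and SNAP25), COL1A1, COL1A2 and DCN each on 1, the monocyte gene CD14 on the 3 CPT arrays and the liver gene ALB on all 6.

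CPT changed a large share of the measured genes within 4 h, and more of them fell than rose. Of 10464 genes tested, 3299 (31.5%) were called at an adjusted p under 0.05, 1362 higher (13.0%) and 1937 lower (18.5%). The falls were also larger. The median log2 fold change was 0.79 among genes called higher and -1.04 among those called lower. A change of 2-fold or more was seen in 354 genes that rose and 1048 that fell, of 4-fold or more in 39 and 126, and of 8-fold or more in 5 and 10. All 3 pairs of arrays moved the same way in 1356 of the 1362 rises and 1934 of the 1937 falls. The share was 68.7% of all genes, the called ones included. Calls were made from the same arrays, so these counts are no separate support for them. The differences of the pairs correlated across genes at 0.89 (pairs 1 and 2), 0.70 (1 and 3) and 0.77 (2 and 3), where genes are not independent replicates. Quantile normalization, used here, gives every array the same distribution of values. Under median scaling the median change of all genes moved from 0.03 to 0.27, and 2861 genes (27.3%) were called higher and 1508 (14.4%) lower, so that rises made up 65.5% of calls in place of 41.3%. All 1362 rises and 1493 of the 1937 falls were called in the same direction by both scalings, and none in opposite directions. List medians are therefore also given relative to the median of all genes. With the replicate number as a block, 2507 genes (24.0%) were called higher and 2654 (25.4%) lower. RNA was measured from the whole culture, so fewer cells of a given state and less RNA per cell cannot be told apart.

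The calls were not evenly spread over expression levels. When genes were split into 4 equal groups by their mean log2 intensity over the 6 WT arrays, 6.84% of the dimmest group were called higher, 15.5% and 18.4% of the middle groups and 11.4% of the brightest. The share called lower was 16.3%, 19.9%, 21.4% and 16.4%. Falls outnumbered rises in each of the 4 groups under quantile normalization. The split was not repeated under median scaling, where rises outnumbered falls over all genes (2861 and 1508).

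The 15 largest rises and falls were taken among called genes detected on all 6 WT arrays with no overlap between the groups. The rises were led by GDF15, a stress-induced cytokine of the TGF-beta family. Its normalized log2 intensities were 7.66, 6.42 and 8.27 under DMSO and 11.64, 11.10 and 10.62 under CPT. The CPT arrays were higher than the DMSO arrays by 3.67 ± 0.50, adjusted p = 0.000242 (log2 fold change ± SE, n = 3 against 3, as in all values below unless stated). ATF3 itself measured 6.06, 5.89 and 8.10 under DMSO and 9.88, 10.00 and 10.84 under CPT, a rise of 3.56 ± 0.47, adjusted p = 0.000203. The AP-1 genes FOSB (5.15, 4.99 and 6.72 under DMSO and 7.33, 8.68 and 10.56 under CPT) and JUN (6.12, 5.20 and 7.31 under DMSO and 8.05, 9.07 and 10.22 under CPT) rose by 3.24 ± 0.70, adjusted p = 0.00451 and 2.90 ± 0.55, adjusted p = 0.0021. ATF3, FOSB and JUN shared a pattern over the arrays, with the highest DMSO value and the highest CPT value in replicate 3.

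PMAIP1, which encodes the BH3-only death protein NOXA, measured 6.47, 5.64 and 6.43 under DMSO and 9.21, 9.38 and 9.34 under CPT and rose by 3.13 ± 0.28, adjusted p = 1.76e-05, with 1.70 on another probe. GADD45A, a p53-induced gene of growth arrest, measured 7.21, 6.87 and 7.63 under DMSO and 10.12, 10.17 and 10.25 under CPT and rose by 2.94 ± 0.21, adjusted p = 5.33e-06. The CPT arrays of both genes lay within a narrow range compared with the distance to the DMSO arrays. Several rises of this size were in genes that belong to no list of stress genes used here. BLOC1S2, a subunit of the complex that forms lysosome-related organelles, rose by 2.91 ± 0.20, adjusted p = 4.77e-06. The THAP-domain gene THAP10 measured 6.20, 5.66 and 5.83 under DMSO and 8.74, 8.71 and 8.78 under CPT, a rise of 2.85 ± 0.17, adjusted p = 2.6e-06. ATP5MK, a small membrane subunit of the ATP synthase, measured 6.59, 6.13 and 6.33 under DMSO and 9.18, 9.23 and 8.96 under CPT, a rise of 2.77 ± 0.17, adjusted p = 2.6e-06. THAP10 and ATP5MK had the smallest adjusted p among the 15 rises. The zinc finger gene ZNF425 (2.59 ± 0.38), the coiled-coil gene KRCC1 (2.54 ± 0.39, with 1.20 on another probe) and MYOM2 (2.43 ± 0.25), a component of the muscle sarcomere, rose by similar amounts. The remaining genes were the matrix-associated growth regulators CCN2 (2.65 ± 0.57, with 2.09 on another probe) and CCN1 (2.45 ± 0.44), and the immediate-early gene IER5 (2.51 ± 0.21).

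The 15 largest falls were led by KITLG, the ligand of the receptor kinase KIT. It measured 10.76, 11.55 and 11.32 under DMSO and 6.84, 7.47 and 8.19 under CPT, and fell by 3.71 ± 0.31 on the log2 scale (adjusted p = 1.23e-05, with -2.84 on another probe). HS3ST1, a sulfotransferase that modifies heparan sulfate, measured 10.65, 10.69 and 9.89 under DMSO and 7.30, 6.89 and 6.25 under CPT (-3.60 ± 0.29, adjusted p = 9.88e-06). Both genes were among the brighter ones under DMSO. MTUS1, a microtubule-associated gene, measured 8.01, 8.23 and 8.77 under DMSO and 5.12, 5.21 and 5.30 under CPT (-3.13 ± 0.19, adjusted p = 2.6e-06). DDX10, an RNA helicase of ribosome assembly, measured 9.03, 9.37 and 9.15 under DMSO and 5.17, 5.86 and 7.15 under CPT (-3.13 ± 0.39, adjusted p = 0.000142). DDX10 and DIP2B (8.59, 9.10 and 9.00 under DMSO and 4.93, 5.25 and 7.55 under CPT) were falls in which CPT replicate 3 kept a higher level than CPT replicates 1 and 2.

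Among the other large falls, NECTIN3, a cell adhesion molecule, changed by -2.86 ± 0.49, the adaptor BCAR3 by -3.02 ± 0.40 and the exchange factor ARHGEF7 by -2.69 ± 0.47. The homeobox gene MKX changed by -3.01 ± 0.27, the adhesion G-protein-coupled receptor ADGRF1 by -2.83 ± 0.20, with -2.30 and -2.11 on other probes and the cytoskeletal gene SPECC1L by -2.74 ± 0.16, with -1.06 on another probe. TRIM33, a ligase that acts on SMAD proteins, changed by -2.85 ± 0.22, with -2.0 on another probe, the ubiquitin ligase UBE3A by -2.69 ± 0.24, the CTP synthase CTPS1 by -2.83 ± 0.35, PUM3, a Pumilio-family protein, by -2.72 ± 0.28 and DIP2B by -2.98 ± 0.53, with -1.89 on another probe. The adjusted p of the 15 falls ranged from 2.6e-06 to 0.00138, and that of the 15 rises from 2.6e-06 to 0.00451. Absence of overlap between the groups was a condition for choosing these 30 genes. It held in 40.5% of all genes (18.1% higher and 22.3% lower). All 30 genes were called in the same direction under each alternative that gave a value for them, including each left-out array.

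**Figure D1:**
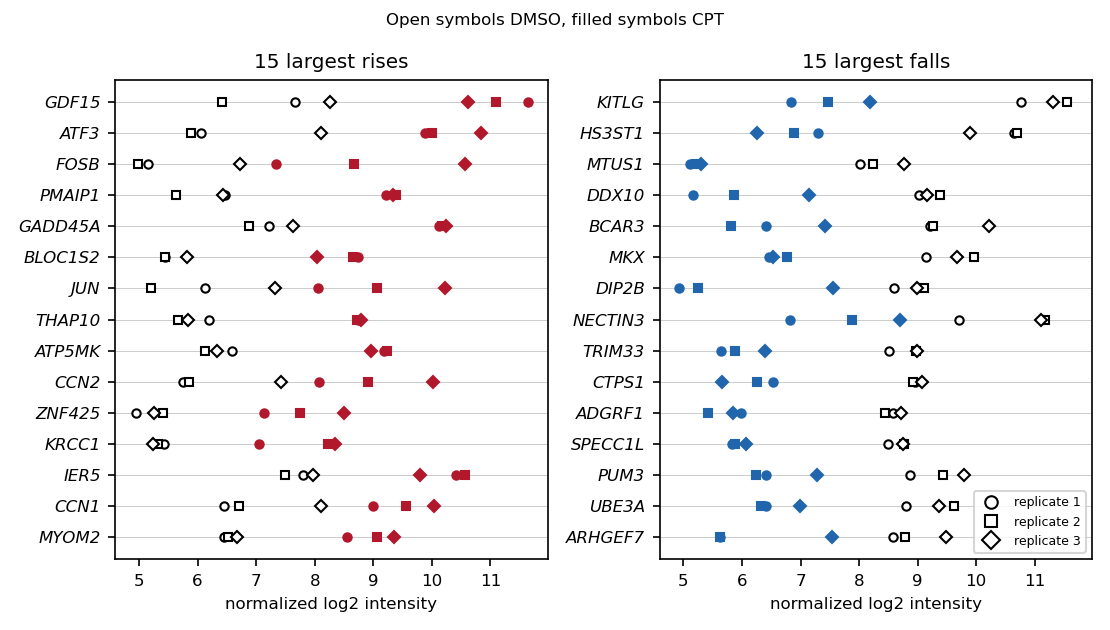
Normalized log2 intensity (x axis) of the 15 largest rises (left) and falls (right) in WT cells, with a symbol per array (open for DMSO, filled for CPT, shapes for replicates 1 to 3). The genes were chosen so that filled and open symbols do not overlap. In ATF3, FOSB, JUN, CCN1 and CCN2 the replicate 3 diamond lies to the right of the others in both groups.

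Some genes crossed the limit of detection. There were 303 genes detected on all 3 DMSO arrays and on no CPT array, of which 246 were called lower, and 49 genes detected on no DMSO array and all 3 CPT arrays, of which 42 were called higher. For these the change is a bound, taken against the lowest signal detected on the arrays. The mitotic kinesin KIF18A measured 7.29, 7.42 and 7.09 under DMSO and 4.64, 4.31 and 4.91 under CPT and was at least 4.7-fold lower, adjusted p = 6.59e-06. The kinase SIK3 was at least 4.17-fold lower, adjusted p = 8.87e-05. CDK12, a kinase of the RNA polymerase II tail that is needed for long DNA repair genes, measured 6.79, 6.74 and 7.02 under DMSO and 4.31, 4.54 and 4.43 under CPT and was at least 3.52-fold lower, adjusted p = 1.18e-05. CARMIL1, a regulator of actin capping, was at least 3.35-fold lower, adjusted p = 4.99e-05, with -0.79 on another probe. The mitochondrial carrier SLC25A13 (at least 2.92-fold), GPHN (at least 2.81-fold, with -0.76 on another probe), which anchors inhibitory receptors, the pseudogene AADACP1 (at least 2.78-fold) and the G-protein subunit GNAI1 (at least 2.73-fold, with -0.88 on another probe) followed.

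Among the rises out of the undetected range, GRIN2C, a glutamate receptor subunit, measured 4.54, 4.34 and 4.81 under DMSO and 6.30, 6.47 and 6.56 under CPT and was at least 3-fold higher, adjusted p = 0.000303. TAGLN3, a calponin-family gene of neurons, measured 4.38, 4.35 and 4.39 under DMSO and 5.83, 6.49 and 6.79 under CPT and was at least 2.85-fold higher, adjusted p = 0.000134. C1orf162 (at least 2.79-fold), the lectin FCN3 (at least 2.56-fold), the pseudogene LAMB2P1 (at least 2.39-fold), the liver peptide LEAP2 (at least 2.27-fold), COXFA4L3 (at least 2.23-fold) and CD14 (at least 2.14-fold) were higher too. The CD14 call (adjusted p = 0.0238) ended without DMSO replicate 2 (adjusted p = 0.0565), DMSO replicate 3 (0.0653) or CPT replicate 3 (0.0639). The other-cell-type list had 7 of 30 members tested, of which 4 rose, namely CD14, the smooth muscle actin ACTA2 (1.39 ± 0.31), ALB (0.86 ± 0.24) and VIM (0.58 ± 0.18), and the myelin gene MBP fell (-2.0 ± 0.20, with -0.62 and -1.13 on other probes). ACTA2 and VIM are also transcribed in many epithelial cell lines. The ALB call ended without DMSO replicate 1 (adjusted p = 0.0575), and the VIM call without DMSO replicate 1 (0.0701) or 3 (0.0714) or CPT replicate 1 (0.0638) or 2 (0.0947). The summed raw signal of these 7 genes was 1894.6 to 2109.7 on the DMSO arrays and 1680.1 to 1921.5 on the CPT arrays, and its part in other results was not tested.

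p53 is a transcription factor whose targets halt the cell cycle, start cell death and repair DNA. Among its targets in arrest and growth control, 12 of 21 tested members rose and 1 fell, with a median log2 fold change of 1.31, while 13.0% of all genes rose and 18.5% fell and the median of all genes was 0.03. The same 13.0% and 18.5% are the background for the counts of each list below. Members of this list were chosen because p53 is known to induce them, and with earlier results of these data known, as were those of the other lists. The cell-cycle inhibitor CDKN1A (p21) measured 10.59, 10.00 and 11.15 under DMSO and 13.27, 12.97 and 12.56 under CPT and rose by 2.35 ± 0.27, adjusted p = 8.65e-05. The antiproliferative genes TOB1 (1.98 ± 0.17, adjusted p = 1.23e-05) and BTG1 (1.55 ± 0.21, adjusted p = 0.00023) and the GADD45 family member GADD45B (1.94 ± 0.17, adjusted p = 1.81e-05) rose as well. GADD45B measured 6.37, 6.33 and 6.42 under DMSO and 8.42, 8.39 and 8.15 under CPT, without overlap. The 1 member that fell was the phosphatase PTP4A1 (-1.20 ± 0.30, with -0.37 on another probe, named after its value was seen).

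Among p53 targets in cell death 9 of 21 rose and 1 fell (median 0.54, 12 up and 2 down with the replicate block). After PMAIP1, TRIAP1, which encodes an inhibitor of caspase activation, measured 8.83, 8.99 and 8.95 under DMSO and 10.50, 10.79 and 9.91 under CPT and rose by 1.48 ± 0.22, adjusted p = 0.000404. The membrane protein PERP rose by 0.93 ± 0.17, adjusted p = 0.00177 and BBC3, which encodes the BH3-only protein PUMA, by 0.93 ± 0.24, adjusted p = 0.0109. BBC3 measured 5.54, 5.69 and 5.95 under DMSO and 6.46, 6.56 and 6.97 under CPT. The pore-forming death protein BAX rose by 0.76 ± 0.14, adjusted p = 0.00199, with 0.10 on another probe, and its call ended when the probes of each gene were averaged. BCL2L1, which encodes the survival protein BCL-XL, fell, and measured 11.21, 11.44 and 11.55 under DMSO and 9.69, 9.76 and 10.07 under CPT (-1.56 ± 0.18, adjusted p = 8.6e-05).

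The p53 targets in DNA repair split, with 3 of 12 higher and 2 lower (median 0.32, 6 up and 4 down with the replicate block, 5 up and 1 down under median scaling). Their shares were 25% and 16.7%, against 13.0% and 18.5% of all genes. The damage sensor XPC rose by 1.39 ± 0.23, adjusted p = 0.000927 and the alkyl transferase MGMT by 0.74 ± 0.19, adjusted p = 0.0113, while GTSE1, a G2-phase protein that binds p53, fell (-1.15 ± 0.20, adjusted p = 0.00112). Among regulators of p53, 2 of 16 rose (12.5%, against 13.0% of all genes) and 4 fell (25%, against 18.5%), with a median of -0.01. The phosphatase PPM1D (WIP1) rose by 0.69 ± 0.17, adjusted p = 0.00968. The other rise, named after its value was seen, was TP53INP1 (1.94 ± 0.51, adjusted p = 0.0128). The ubiquitin ligase COP1 measured 8.78, 9.07 and 9.27 under DMSO and 5.85, 6.07 and 7.41 under CPT (-2.59 ± 0.35, adjusted p = 0.000227, with -1.97 on another probe), and the protease USP7 (-1.50 ± 0.19, adjusted p = 0.000145), the checkpoint kinase CHEK1 (-1.17 ± 0.26, adjusted p = 0.0048) and TRIM24 (-1.08 ± 0.27, adjusted p = 0.0107) fell. COP1, USP7 and TRIM24 act on p53 stability. MDM2, the main ligase of p53, was not called (-0.15 ± 0.15, adjusted p = 0.485). Its log2 values lay between 4.82 and 5.19 on the 6 arrays, close to the limit of detection, with detection on 1 of 3 CPT arrays.

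Immediate-early genes, which cells transcribe within minutes of a stimulus, and bZIP genes gave rises that differed in size between arrays. Among AP-1 and other bZIP factors 9 of 29 tested genes rose and 2 fell (median 0.35). Besides ATF3, FOSB and JUN, the small MAF protein MAFF rose by 1.48 ± 0.20, adjusted p = 0.000216, JUNB by 1.33 ± 0.21, adjusted p = 0.00057 and the CCAAT-binding factor CEBPA by 1.21 ± 0.21, adjusted p = 0.00118. CEBPA measured 6.83, 6.76 and 6.91 under DMSO and 8.23, 8.20 and 7.70 under CPT, with CPT replicate 3 the lowest of its group. The 2 falls, named after their values were seen, were ATF6 (-0.71 ± 0.21), a sensor of unfolded proteins, and NFE2L2 (-1.12 ± 0.26), which encodes the antioxidant regulator NRF2.

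Among immediate-early and growth-factor response genes 16 of 44 rose and 6 fell (median 0.42). The kinase SGK1 measured 6.12, 6.39 and 5.80 under DMSO and 7.96, 8.34 and 9.17 under CPT (2.38 ± 0.26, adjusted p = 7.25e-05) and the small GTPase RHOB measured 6.85, 6.49 and 6.33 under DMSO and 8.31, 8.13 and 8.18 under CPT (1.65 ± 0.20, adjusted p = 0.000142). The falls included the RAS-pathway inhibitors SPRED1 (-2.12 ± 0.28, adjusted p = 0.000214) and SPRED2 (-1.66 ± 0.21, adjusted p = 0.000145) and the growth factor EREG (-1.72 ± 0.24, adjusted p = 0.000278). Over both lists 25 genes rose. In 21 of these the highest DMSO array was replicate 3, and in 13 the highest CPT array was, whereas replicate 3 held the highest DMSO value in 38.3% of all genes. DMSO replicate 3 had the highest starting level of most of these genes, and the part of this in their changes was not tested. The replicate block lowered the adjusted p of FOSB to 0.000127, of JUN to 8.92e-05 and of CCN2 to 2.92e-05.

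Genes of mitosis fell together. Of 63 tested kinases, spindle, kinetochore and cytokinesis genes, 37 fell and none rose (1 up and 35 down under median scaling), and their median was -1.0, or -1.03 and -1.03 relative to the median of all genes under quantile normalization and median scaling. After KIF18A, the spindle motor KIF11 measured 7.69, 7.60 and 8.01 under DMSO and 5.35, 5.20 and 5.30 under CPT (-2.48 ± 0.21, adjusted p = 1.25e-05, with -1.96 on another probe). The kinase AURKA measured 9.96, 10.03 and 10.24 under DMSO and 7.56, 7.73 and 8.42 under CPT (-2.17 ± 0.25, adjusted p = 8.65e-05). Kinetochore genes fell as well, among them CENPE (-2.04 ± 0.23, adjusted p = 8.6e-05) and BUB3 (-1.20 ± 0.15, adjusted p = 0.00016, with -0.21 on another probe). BUB3 remained one of the brighter genes, at 12.50, 12.38 and 12.55 under DMSO and 11.20, 11.15 and 11.47 under CPT. Of the 37 falls, 3 were in genes detected on no CPT array.

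Cyclins, CDKs and their inhibitors gave 2 rises and 13 falls among 39 genes (median -0.35, 6 up and 17 down with the replicate block). The inhibitor CDKN2B (p15) measured 5.18, 5.34 and 5.72 under DMSO and 7.09, 8.13 and 7.89 under CPT and rose by 2.29 ± 0.27, adjusted p = 0.000114. The other rise was CDK9. The 4 falls with the smallest p were in kinases that act in transcription, of which CDK7 also activates the cell-cycle CDKs. CDK12 is given above, CDK13 was at least 2.61-fold lower, adjusted p = 0.000151, the Mediator kinase CDK8 was at least 1.76-fold lower, adjusted p = 0.000216, and the TFIIH kinase CDK7 changed by -1.65 ± 0.22, adjusted p = 0.000195. Among DNA replication genes 2 of 52 rose and 14 fell (median -0.19, 6 up and 18 down with the replicate block, 6 up and 11 down under median scaling). Relative to all genes the median was -0.22 and -0.26 under quantile normalization and median scaling. The falls were largest in the origin recognition subunits ORC5 (9.34, 9.40 and 9.50 under DMSO and 6.39, 6.24 and 7.67 under CPT, -2.65 ± 0.32, adjusted p = 0.000135, with -0.92 on another probe) and ORC2 (8.21, 8.25 and 7.98 under DMSO and 5.98, 6.08 and 6.51 under CPT, -1.96 ± 0.18, adjusted p = 2.39e-05). The clamp loader RFC1 (-1.75 ± 0.28, adjusted p = 0.000778, with -0.94 on another probe), the cell-cycle factor E2F3 (-1.27 ± 0.18, adjusted p = 0.000308) and the histone chaperone CHAF1A (at least 1.86-fold lower, adjusted p = 0.000248) fell too.

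In homologous recombination, the Fanconi pathway and the checkpoint, 12 of 31 genes fell and none rose (median -0.49, 1 up and 16 down with the replicate block). BARD1, the partner of BRCA1, measured 6.12, 6.71 and 6.04 under DMSO and 4.35, 4.49 and 4.89 under CPT and was at least 2.38-fold lower, adjusted p = 0.000221. TOPBP1, an activator of the ATR kinase, changed by -1.63 ± 0.25, adjusted p = 0.000597, the fork protector TIPIN by -1.22 ± 0.26, adjusted p = 0.00441, the helicase WRN by -1.18 ± 0.26, adjusted p = 0.00558, with -0.42 on another probe and RAD54B by -1.12 ± 0.26, adjusted p = 0.00611. Genes of TOP1 and of the repair of its trapped complexes gave 2 rises and 4 falls among 24 (median -0.03, 4 up and 7 down with the replicate block). Both shares, 8.33% and 16.7%, were below the 13.0% and 18.5% of all genes. The falls named were the ligase scaffold CUL4A (-0.64 ± 0.14, adjusted p = 0.00509), the proteasome protease PSMD14 (-0.61 ± 0.14, adjusted p = 0.00679), TOP2A (-0.71 ± 0.20, adjusted p = 0.0175) and the DNA end-processing gene APTX (-0.59 ± 0.18, adjusted p = 0.0245). The TOP2A call ended under median scaling and without CPT replicate 1 (adjusted p = 0.0507), CPT replicate 2 (0.0548) or DMSO replicate 3 (0.0658). The APTX call ended without replicate 1 (0.0895 for DMSO, 0.0656 for CPT) or replicate 2 (0.0705 and 0.0758). TOP1 itself, the target of the drug, was not called in the main fit (-0.62 ± 0.22, adjusted p = 0.0527, named after its value was seen). It was called lower with the replicate block (adjusted p = 0.00703) and under median scaling (adjusted p = 0.0446).

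The transcription machinery changed in its parts. In the list of elongation factors, the 7SK particle and Mediator, 2 of 54 genes rose and 14 fell (median -0.17, 9 up and 17 down with the replicate block, 9 up and 11 down under median scaling). These shares were 3.70% and 25.9%, against 13.0% and 18.5% of all genes. The rises were CDK9, the kinase of the elongation factor P-TEFb, and HEXIM1, the protein that holds P-TEFb inactive in the 7SK particle. CDK9 measured 8.21, 8.16 and 7.95 under DMSO and 9.47, 9.50 and 8.92 under CPT (1.19 ± 0.20, adjusted p = 0.000905). HEXIM1 was detected on 1 of 3 DMSO arrays and rose by 1.15 ± 0.25 (adjusted p = 0.00476, named after its value was seen). The 7SK RNA itself (RN7SK), in the list of noncoding RNAs, measured 7.94, 6.61 and 6.65 under DMSO and 9.07, 8.90 and 8.24 under CPT (1.67 ± 0.37, adjusted p = 0.00507). On the other side, the Mediator subunits MED4 (-1.90 ± 0.22, adjusted p = 0.000107) and MED13L (at least 1.65-fold lower, adjusted p = 0.000118) fell beside CDK12 and CDK13. RNA polymerase subunits gave 3 rises and 10 falls among 28 (median -0.18, 7 up and 8 down under median scaling). Rises made up 10.7% and falls 35.7%, against 13.0% and 18.5% of all genes. The falls named were mostly of polymerase III, with POLR3B at 7.91, 8.19 and 8.04 under DMSO and 4.74, 4.50 and 5.09 under CPT (-3.27 ± 0.27, adjusted p = 1.18e-05, detected on 1 of 3 CPT arrays), POLR3F (-0.94 ± 0.15, adjusted p = 0.000799), POLR3G (-1.07 ± 0.18, adjusted p = 0.000839, with -0.05 on another probe) and POLR3E (-0.92 ± 0.20, adjusted p = 0.00516). POLR1E of polymerase I fell as well (-1.40 ± 0.19, adjusted p = 0.000228). Other falls included POLR2B (-0.76 ± 0.20) and POLR1D (-0.87 ± 0.20, with 0.83 on another probe). The 3 rises were POLR3GL of polymerase III (0.67 ± 0.21, adjusted p = 0.0312), POLR2M (0.65 ± 0.20) and POLR2I (0.61 ± 0.21). These rises and other falls were named after their values were seen.

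Among splicing regulators 3 of 44 genes rose and 15 fell (median -0.30, 5 up and 20 down with the replicate block). The 2 falls with the smallest p were in genes of SR proteins, which bind exons. SRSF3 measured 9.64, 9.83 and 9.70 under DMSO and 7.81, 7.78 and 7.60 under CPT (-1.99 ± 0.16, adjusted p = 9.8e-06), SRSF1 measured 10.59, 10.98 and 11.40 under DMSO and 9.34, 9.12 and 8.80 under CPT (-1.90 ± 0.26, adjusted p = 0.000238) and SRSF7 changed by -1.57 ± 0.26, adjusted p = 0.000778. The speckle protein SON (-1.38 ± 0.20, adjusted p = 0.000313) and HNRNPR (-1.11 ± 0.15, adjusted p = 0.000262, with -0.33 on another probe) fell too.

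In the nuclear pore, ribosome assembly, ubiquitin ligase and chromatin lists falls far outnumbered rises, as they did in mitosis. Their shares of falls were 55.6%, 50.9%, 56.9% and 38.6%, in this order, against 18.5% of all genes. In the chromatin list 5.26% rose and in the others none, against 13.0% of all genes. Of 54 nuclear pore and transport genes 30 fell and none rose (median -0.71, 2 up and 34 down with the replicate block, 3 up and 27 down under median scaling). AHCTF1 (ELYS), which seeds new pores on chromatin, measured 8.17, 8.64 and 7.98 under DMSO and 5.15, 4.74 and 4.51 under CPT (-3.47 ± 0.25, adjusted p = 5.23e-06, with -1.87 on another probe, detected on 1 of 3 CPT arrays), and the pore ring gene NUP35 measured 9.01, 8.97 and 9.39 under DMSO and 5.74, 5.16 and 6.50 under CPT (-3.32 ± 0.28, adjusted p = 1.25e-05, with -2.49 on another probe, on 2 of 3). The exportins XPO6 (-1.77 ± 0.18, adjusted p = 4.99e-05) and XPO5 (-1.56 ± 0.17, adjusted p = 7.25e-05), of which XPO5 carries microRNA precursors, fell with small errors. Of 55 ribosome biogenesis genes 28 fell and none rose (median -0.71, 2 up and 22 down under median scaling). After DDX10, the helicase DDX52 (-1.92 ± 0.21, adjusted p = 7.25e-05, with -0.90 on another probe), NOL11 (-1.63 ± 0.22, adjusted p = 0.000225), WDR12 (-1.48 ± 0.19, adjusted p = 0.000166) and the RNA acetyltransferase NAT10 (-1.35 ± 0.18, adjusted p = 0.000216) fell. Of 67 cytosolic ribosomal protein genes, which encode the parts of the ribosome itself, 5 rose and none fell (median 0.03, 6 up and 1 down with the replicate block, 63 up and 0 down under median scaling). These 5 rises were 7.46% of the list, below the 13.0% of all genes.

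Of 58 tested ubiquitin ligases and ubiquitin-specific proteases, 33 fell and none rose (median -0.79, 2 up and 41 down with the replicate block, 1 up and 29 down under median scaling). UBE3A measured 8.81, 9.62 and 9.36 under DMSO and 6.41, 6.33 and 6.99 under CPT, and the cullins CUL1 (-2.26 ± 0.23, adjusted p = 4.02e-05) and CUL5 (-1.45 ± 0.17, adjusted p = 0.000114), scaffolds of multi-subunit ligases, and the protease USP24 (-1.47 ± 0.18, adjusted p = 0.000114) fell with it. USP6NL (-2.41 ± 0.24, adjusted p = 4.22e-05) is in the list by its symbol but encodes a regulator of RAB GTPases. Of 57 histone-modifying and Polycomb genes 22 fell and 3 rose (median -0.40, 6 up and 16 down under median scaling). JARID2, a Polycomb cofactor, measured 7.77, 8.74 and 7.78 under DMSO and 4.52, 4.32 and 5.86 under CPT (-3.20 ± 0.41, adjusted p = 0.000171, on 1 of 3 CPT arrays). The acetyltransferase CREBBP measured 8.27, 8.16 and 8.66 under DMSO and 6.14, 5.39 and 6.18 under CPT (-2.46 ± 0.24, adjusted p = 3.83e-05). The H3K36 methyltransferase SETD2 (-2.46 ± 0.32, adjusted p = 0.000194), the remodeller CHD1 (-2.14 ± 0.29, adjusted p = 0.000264) and ARID2 (at least 1.57-fold lower, adjusted p = 5.18e-05) fell too. In these 4 lists, the median relative to all genes under quantile normalization and median scaling was -0.74 and -0.85 for the nuclear pore, -0.74 and -0.79 for ribosome assembly, -0.82 and -0.86 for ubiquitin ligases and -0.43 and -0.36 for chromatin.

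**Figure D2:**
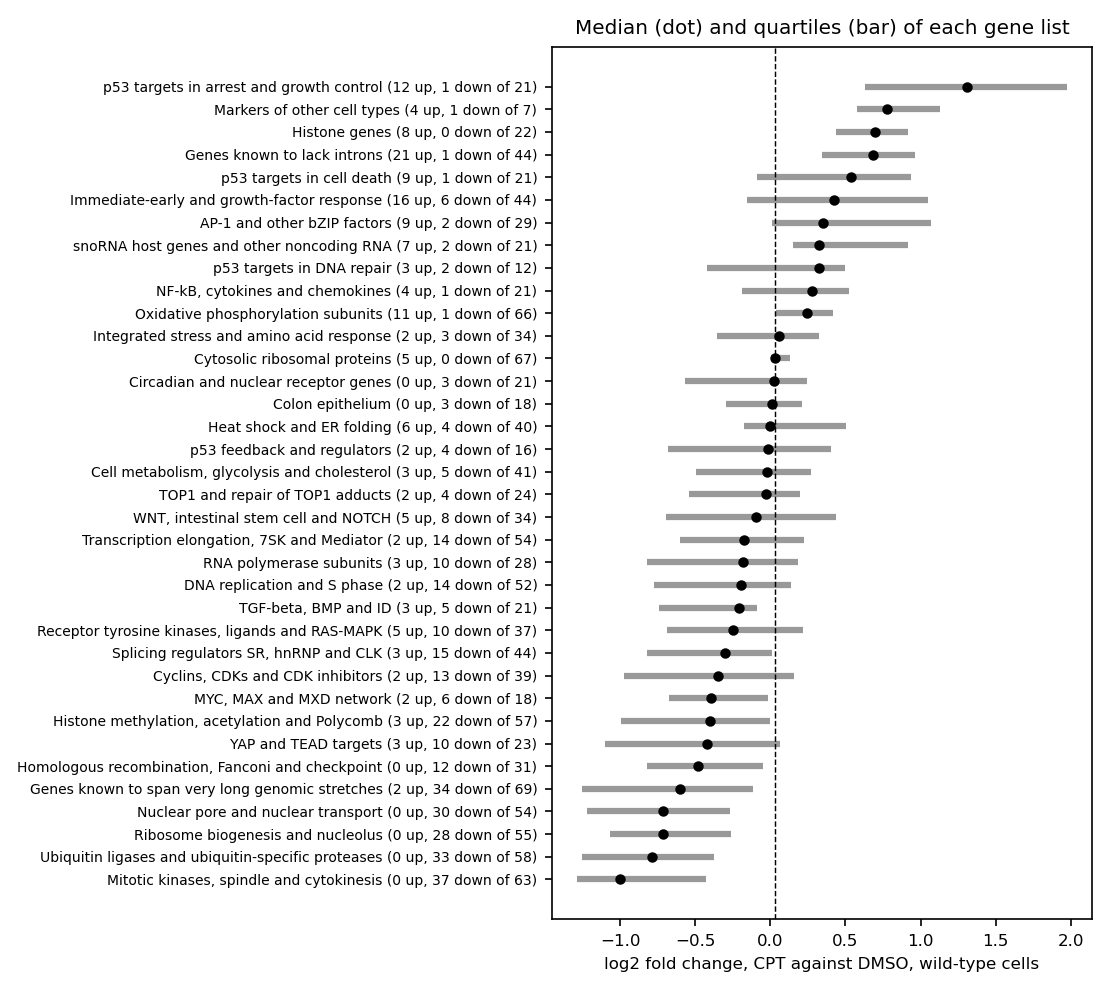
Median (dot) and lower and upper quartiles (bar) of the log2 fold change between CPT and DMSO in WT cells (x axis) for each of the 36 gene lists (y axis), with the numbers of members called up and down of those tested; the dashed line is the median of all genes. Mitosis, at -1.0, and p53 targets in arrest, at 1.31, lie at the ends.

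Genes were also grouped by what is known of their length and introns. Of 97 genes known to span very long stretches of the genome, 69 were tested, of which 34 fell and 2 rose (median -0.60, 5 up and 37 down with the replicate block, 5 up and 27 down under median scaling), or -0.63 and -0.61 relative to all genes under the scalings. JARID2 was the largest of these falls. SLC25A13 and GPHN are given above, and the zinc finger gene ZNF407 measured 6.02, 6.51 and 6.73 under DMSO and 4.23, 4.50 and 4.52 under CPT and was at least 2.61-fold lower, adjusted p = 5.18e-05. The 2 rises, named after their values were seen, were EXOC4 (0.77 ± 0.18, with -0.06 on another probe) and IMMP2L (0.50 ± 0.16). With probes detected on all 12 arrays, a filter that also takes out genes that fell below detection, the median was -0.21 over 30 members and 0.09 over 7464 genes. Of the 69 tested genes 32 were detected on all 6 WT arrays, and 8 of the 34 falls were in genes detected on no CPT array.

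Of 44 tested genes listed as lacking introns, 21 rose and 1 fell (median 0.69, 29 up and 2 down with the replicate block, 30 up and 0 down under median scaling), or 0.66 and 0.63 relative to all genes. The list wrongly held 8 genes that have introns, 6 of them tested and among them the fall. Without them 21 of 38 rose and none fell (median 0.75). Since JUN, IER5, JUNB, CEBPA and other members are also bZIP, immediate-early or histone genes, the count was repeated without such genes, which left 8 of 20 higher and none lower (median 0.53). Both changes to the list were made after the values were seen. IER5, RHOB, JUNB and H2BC5 had the smallest p, and the ring-finger gene RNF113A, which followed, rose by 0.94 ± 0.16, adjusted p = 0.000963. Gene lengths and intron counts were not analysed here.

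Of 22 tested histone genes 8 rose and none fell (median 0.69, 14 up and 2 down with the replicate block, 13 up and 0 down under median scaling). These rises were 36.4% of the list, against 13.0% of all genes. H3-3B, which encodes a histone H3.3 with a polyadenylated message, measured 8.82, 9.14 and 8.75 under DMSO and 10.74, 10.99 and 9.68 under CPT (1.57 ± 0.28, adjusted p = 0.00133). The clustered gene H2BC5 measured 7.54, 8.05 and 7.67 under DMSO and 8.76, 9.40 and 9.00 under CPT (1.30 ± 0.21, adjusted p = 0.000853), and H4C12 (1.14 ± 0.21, adjusted p = 0.00194), H2AC6 (0.92 ± 0.20, adjusted p = 0.00413) and the linker histone H1-10 (0.91 ± 0.16, adjusted p = 0.00132) rose. Messages of near-identical clustered histone genes may share a probe, so the member that rose is uncertain. Among snoRNA host genes and other noncoding RNAs 7 of 21 rose and 2 fell (median 0.33, 12 up and 2 down with the replicate block, 14 up and 1 down under median scaling). These shares were 33.3% and 9.52%, against 13.0% and 18.5% of all genes. With RN7SK, the RNase P RNA RPPH1 measured 5.58, 5.33 and 5.92 under DMSO and 6.91, 7.29 and 6.94 under CPT (1.44 ± 0.21, adjusted p = 0.000421), the telomerase RNA TERC measured 4.95, 5.72 and 5.14 under DMSO and 5.92, 7.82 and 6.76 under CPT (1.57 ± 0.42, adjusted p = 0.0146) and the host gene SNHG8 rose by 0.97 ± 0.19, adjusted p = 0.00226, while SNHG17 fell (-0.78 ± 0.19, adjusted p = 0.00925). The TERC call ended without DMSO replicate 1 (adjusted p = 0.0511) or CPT replicate 2 (0.0604).

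Genes of oxidative phosphorylation gave 11 rises and 1 fall among 66 (median 0.25, 25 up and 1 down with the replicate block, 52 up and 1 down under median scaling), with NDUFA7 (0.86 ± 0.17, adjusted p = 0.00305) and NDUFS7 (0.70 ± 0.16, adjusted p = 0.00523) of complex I and UQCRB (0.75 ± 0.19, adjusted p = 0.011) of complex III among the rises. Rises made up 16.7% and falls 1.52% of the list, against 13.0% and 18.5% of all genes. The single fall, named after its value was seen, was UQCR11 (-0.89 ± 0.27). Counts in this list and in the ribosomal proteins depended on the scaling, with medians under median scaling of 0.47 and 0.43 relative to all genes, against 0.22 and 0.00412 under quantile normalization.

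Among receptor tyrosine kinases, their ligands and the RAS pathway, 5 of 37 rose (13.5%, against 13.0% of all genes) and 10 fell (27.0%, against 18.5%). The median was -0.25, and -0.01 over the 32 members with a probe detected on all 12 arrays. The receptor FGFR4 measured 6.80, 6.63 and 6.87 under DMSO and 7.62, 7.85 and 7.76 under CPT (0.98 ± 0.14, adjusted p = 0.00041), while the lipid kinase PIK3CB (-2.05 ± 0.37, adjusted p = 0.00137, on 1 of 3 CPT arrays) and the MAP kinase kinase MAP2K1 (-1.18 ± 0.22, adjusted p = 0.00187) fell with KITLG and EREG. In TGF-beta signalling 3 of 21 rose and 5 fell (median -0.21). These shares, 14.3% and 23.8%, were near the 13.0% and 18.5% of all genes. The receptor TGFBR2 measured 7.32, 7.67 and 7.68 under DMSO and 4.79, 5.03 and 5.90 under CPT (-2.31 ± 0.29, adjusted p = 0.000141, on 1 of 3 CPT arrays), and the transducers SMAD3 (-1.46 ± 0.19, adjusted p = 0.000174) and SMAD5 (-0.89 ± 0.22, adjusted p = 0.00986) and the corepressor TGIF1 (-1.19 ± 0.25, adjusted p = 0.00404) fell.

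YAP and its targets gave 3 rises and 10 falls among 23 (median -0.42). Rises made up 13.0%, the same share as among all genes, and falls 43.5%, against 18.5%. The rises were CCN2, CCN1 and GADD45B, which are also immediate-early or stress genes. The coactivators YAP1 (-1.21 ± 0.21, adjusted p = 0.00103) and WWTR1 (TAZ, at least 1.55-fold lower, adjusted p = 0.00117) and their DNA-binding partner TEAD4 (-1.71 ± 0.28, adjusted p = 0.000894, with -1.07 on another probe) fell, and so did F3, which encodes the clotting initiator tissue factor (-1.40 ± 0.24, adjusted p = 0.00111, with -0.85 on another probe). In the WNT and NOTCH list 5 of 34 rose and 8 fell (median -0.10, 9 up and 11 down with the replicate block, 8 up and 6 down under median scaling). Rises made up 14.7% and falls 23.5%, near the 13.0% and 18.5% of all genes. The feedback genes AXIN2 (6.73, 7.66 and 7.54 under DMSO and 5.78, 5.92 and 5.37 under CPT, -1.62 ± 0.30, adjusted p = 0.00177), RNF43 (at least 1.25-fold, adjusted p = 0.00181) and ZNRF3 (at least 1.48-fold, adjusted p = 0.00164), the transcription factor TCF7L2 (-1.43 ± 0.22, adjusted p = 0.00048, on 1 of 3 CPT arrays) and the receptor NOTCH2 (at least 1.51-fold, adjusted p = 0.000214) were lower. Among NF-kB and cytokine genes 4 of 21 rose and 1 fell (median 0.28, 8 up and 3 down with the replicate block, 7 up and 1 down under median scaling). The NF-kB cofactor NFKBIZ measured 4.84, 4.89 and 4.43 under DMSO and 6.28, 6.45 and 7.51 under CPT (2.03 ± 0.34, adjusted p = 0.000905, detected on 1 of 3 DMSO arrays) and the inhibitor NFKBIA rose by 0.99 ± 0.22, adjusted p = 0.00464, whereas NFKB1, the precursor of the p50 subunit, fell (-1.83 ± 0.21, adjusted p = 0.000107). In the MYC network 2 of 18 rose and 6 fell (median -0.40, 2 up and 3 down under median scaling). That is 11.1% and 33.3%, against 13.0% and 18.5% of all genes. The repressor MXD1 was at least 1.79-fold higher, adjusted p = 0.00133. MYC (-0.96 ± 0.19, adjusted p = 0.00272) and its partner MAX (-0.72 ± 0.22, adjusted p = 0.0276, with -0.44, 0.10 and -0.98 on other probes, named after its value was seen) fell. Both calls ended under median scaling (adjusted p = 0.059 for MAX). MGA, which pairs with MAX, was at least 1.96-fold lower, adjusted p = 8.62e-05.

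In the integrated stress and amino acid response 2 of 34 rose (5.88%, below the 13.0% of all genes) and 3 fell (8.82%, below 18.5%). The median was 0.06, with 6 up and 4 down with the replicate block and 6 up and 2 down under median scaling. The amino acid transporters SLC7A1 (9.44, 9.19 and 9.44 under DMSO and 7.87, 7.42 and 7.77 under CPT, -1.67 ± 0.19, adjusted p = 7.99e-05) and SLC38A2 (-1.25 ± 0.29, adjusted p = 0.00713) were lower. Among heat shock and ER folding genes 6 of 40 rose and 4 fell (12 up and 6 down with the replicate block, 17 up and 1 down under median scaling). That is 15% and 10%, against 13.0% and 18.5% of all genes. The rises named were of the ER, namely HYOU1 (0.80 ± 0.15, adjusted p = 0.0019), PDIA4 (0.79 ± 0.19, adjusted p = 0.00804) and CRELD2 (0.66 ± 0.16, adjusted p = 0.00941), and the falls of the cytosolic heat shock system, namely HSPH1 (-0.90 ± 0.18, adjusted p = 0.00281) and DNAJA1 (-0.88 ± 0.20, adjusted p = 0.00675, whose call ended under median scaling). In metabolism 3 of 41 rose (7.32%) and 5 fell (12.2%), fewer than the 13.0% and 18.5% of all genes. The median was -0.03, with 6 up and 8 down with the replicate block and 15 up and 2 down under median scaling. The glucose transporter SLC2A1 measured 11.39, 11.65 and 12.04 under DMSO and 9.22, 9.12 and 10.11 under CPT (-2.21 ± 0.32, adjusted p = 0.000367) and hexokinase HK2 8.99, 9.04 and 9.80 under DMSO and 6.97, 6.49 and 8.09 under CPT (-2.09 ± 0.53, adjusted p = 0.0104, with -0.90 on another probe), while the muscle-type phosphofructokinase PFKM rose (0.76 ± 0.19, adjusted p = 0.00981). Colon epithelium genes gave 3 falls among 18 (16.7%, below the 18.5% of all genes, 2 up and 4 down with the replicate block, 4 up and 2 down under median scaling), with the junction protein TJP1 at 9.39, 9.27 and 9.65 under DMSO and 6.95, 6.61 and 7.32 under CPT (-2.47 ± 0.19, adjusted p = 6.88e-06) and KRT19 (-0.75 ± 0.16, adjusted p = 0.00409, a call that ended under median scaling). Of 21 circadian and nuclear receptor genes 3 fell (14.3%, below the 18.5% of all genes, 4 up and 6 down with the replicate block, 2 up and 2 down under median scaling), led by CLOCK (-2.17 ± 0.28, adjusted p = 0.000184, with 0.64 on another probe), a gene whose probes moved in opposite directions.

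Promoter sequences were compared between genes that rose and fell, as a feature that the choice of samples did not use. RefSeq promoters of GRCh38.p14, which run from 250 bases before to 50 bases after the transcription start, were matched by gene identifier to 8459 of the 10464 genes, with the start listed first for each gene. The TATA box (searched as TATAAA on both strands) was found in 5.23% of tested genes, in 12.0% of all 27305 genes of the promoter table, in 7.6% of genes called higher and in 4.65% of those called lower. It was found in 11.8% of genes that rose at least 2-fold (31 of 262) and 16.7% of those that rose at least 4-fold (5 of 30), compared with 5.1% and 6.25% of the falls of these sizes. With the motif required on the strand of the gene and 20 to 40 bases before the start, where the box is known to act, the shares were 1.62% of tested genes, 8.02% of rises of at least 2-fold (21 of 262) and 1.22% of falls (11 of 902). The 30 bases that hold this box are shown, with the motif in capitals, for 4 genes that rose and 2 that fell, so that both kinds can be compared.
GDF15: aagtccggggacTATAAAggccggtccggc
FOSB: gggtcccgggcaTATAAAtacaggctggcg
CCN2: ccgcccggagcgTATAAAagcctcgggccg
H2BC5: gaataccgcatcTATAAAtgaacagggcct
KITLG: gggcgggaactgTATAAAagcgccggcggc
SRSF3: tccagtatggcgTATAAAtaaaggcgagga
These 30-base windows lie in GDF15 at chr19:18386117-18386146 (plus strand), FOSB at chr19:45467954-45467983 (plus strand), CCN2 at chr6:131951387-131951416 (minus strand), H2BC5 at chr6:26158081-26158110 (plus strand), KITLG at chr12:88580483-88580512 (minus strand) and SRSF3 at chr6:36594320-36594349 (plus strand), all before the start. The box of KITLG, which fell, began 29 bases before the start, as did that of GDF15, which rose, and those of SRSF3, which fell, and FOSB, which rose, 30 bases before it.

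The cell-cycle homology region (CHR, searched as TTTGAA on both strands), a motif known from promoters of mitotic genes, went the other way. It was found in 9.55% of tested genes and 15.4% of all promoters, in 13% of genes called lower and 8.75% of those called higher, and in 14.9% (134 of 902) and 19.6% (22 of 112) of the falls of at least 2-fold and 4-fold. It is shown for the spindle motors KIF11 and KIF18A, for NUP35 and for DDX10 and TRIM33, which were among the 15 largest falls, with the motif in capitals on whichever strand it was found.
KIF11: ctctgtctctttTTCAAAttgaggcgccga
KIF18A: gctgaggaaagtggcttgggTTTGAAtatt
NUP35: gtttccgccattTTTGAAaattaattggga
DDX10: gcgtgccccggtTTCAAAagctcgggggcg
TRIM33: caaccgccctccTTCAAAcgcgcgacgcga
They lie in KIF11 at chr10:92593090-92593119 (plus strand), KIF18A at chr11:28108157-28108186 (minus strand), NUP35 at chr2:183124396-183124425 (plus strand), DDX10 at chr11:108665010-108665039 (plus strand) and TRIM33 at chr1:114511238-114511267 (minus strand). The first base of the motif was 10 to 52 bases before the start in these genes. The ATF/CRE motif (TGACGTCA, both strands), which ATF3 is known to bind, was found in 3.46% of tested genes, 3.8% of those called higher and 3.56% of those called lower (1.98% of all promoters), and in 5.34% of rises (14 of 262) and 4.32% of falls (39 of 902) of at least 2-fold. It is shown for MAFF and PPM1D, which rose, and for DDX10, which fell and held the motif at a pair of places, of which the one nearer the start is given.
MAFF: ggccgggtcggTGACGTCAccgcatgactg
PPM1D: agagagccgagTGACGTCAgcgggggagaa
DDX10: cctccttttccTGACGTCAttggcgcgtgc
They lie in MAFF at chr22:38201929-38201958 (plus strand), PPM1D at chr17:60600121-60600150 (plus strand) and DDX10 at chr11:108664986-108665015 (plus strand). The AP-1 motif (TGACTCA) was in 2.98% of tested genes, 3.14% of rises and 2.78% of falls (4.92% of all promoters), the p53 decamer in 5.2%, 6.18% and 4.53% (6.54%), the E-box (CACGTG) in 10.5%, 7.89% and 11% (7.43%), the SP1 box (GGGCGG) in 71.3%, 70.5% and 70.8% (44.6%) and the CCAAT box in 37.3%, 40.4% and 36.4% (35.7%). All were searched on both strands, and no motif with fixed letters holds another whole, though matches of different motifs can overlap in part. Median GC content of the promoters was 65.3% for tested genes, 63.7% for rises and 65.3% for falls of at least 2-fold. A match is a run of letters and not a bound site, and no test was made.

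**Figure D3:**
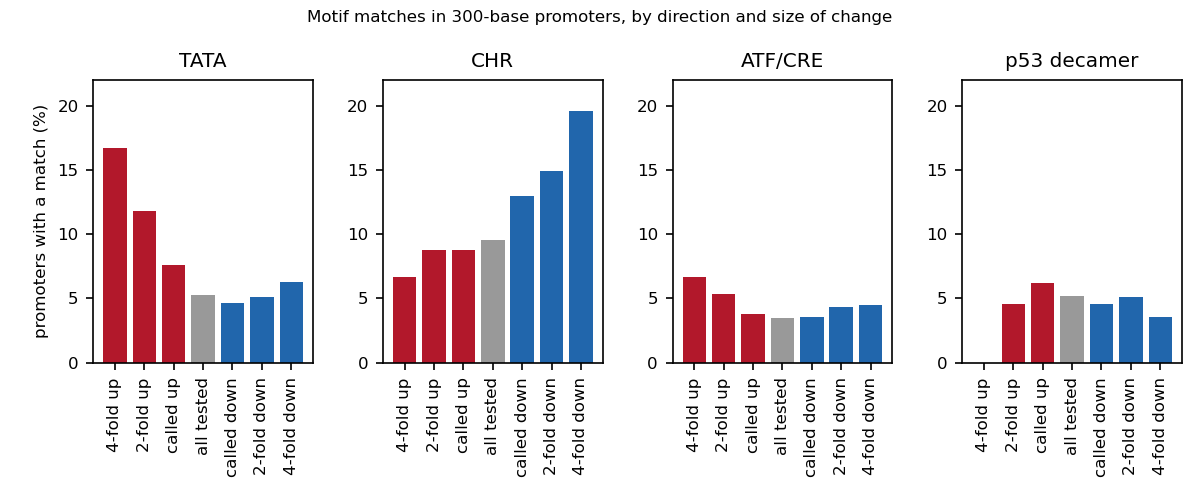
Percentage of 300-base promoters with at least 1 match (y axis) to the TATA, CHR, ATF/CRE and p53 decamer motifs (panels) for genes called higher (red), all genes tested (grey) and genes called lower (blue), by size of change (x axis). The TATA share is 16.7% in the 30 promoters of the 4-fold rises and 5.23% in all tested genes, and the CHR share is 19.6% in the 112 promoters of the 4-fold falls and 9.55% in all.

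The WT response was set beside that of KO cells, measured in the same way with 3 arrays per group. In KO cells 1450 genes (13.9%) rose and 1877 (17.9%) fell. Of the WT calls 2585 were called in the same direction in KO cells (78.4% of the WT and 77.7% of the KO calls) and none in the opposite one, and 3272 of the 3299 had the same sign. The test of the difference between the responses, with the replicate number as a block, called 0 of 10464 genes (limma, smallest adjusted p = 0.16), with 508 genes (4.85%) at an unadjusted p under 0.05. Without the block 0 were called and 198 had an unadjusted p under 0.05. Of the 80 named genes that rose in WT cells 73 also rose in KO cells, and of the 122 that fell 115 also fell. GDF15 rose by 2.28 ± 0.50 in KO cells and ATF3 by 2.53 ± 0.47, MKX changed by -1.50 ± 0.27, ADGRF1 by -1.25 ± 0.20 and AURKA by -0.88 ± 0.25. The differences of these genes were not called with quantile normalization (KO minus WT -1.39 ± 0.52, adjusted p = 0.925 for GDF15 and 1.58 ± 0.24, adjusted p = 0.16 for ADGRF1). Under median scaling 4 genes were called, of which ADGRF1 differed by 1.72 (adjusted p = 0.0254). The ATF3 probe was also raised in KO cells, and whether it lies in the deleted part of the gene is not known here, so it does not check the knockout.

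**Figure D4:**
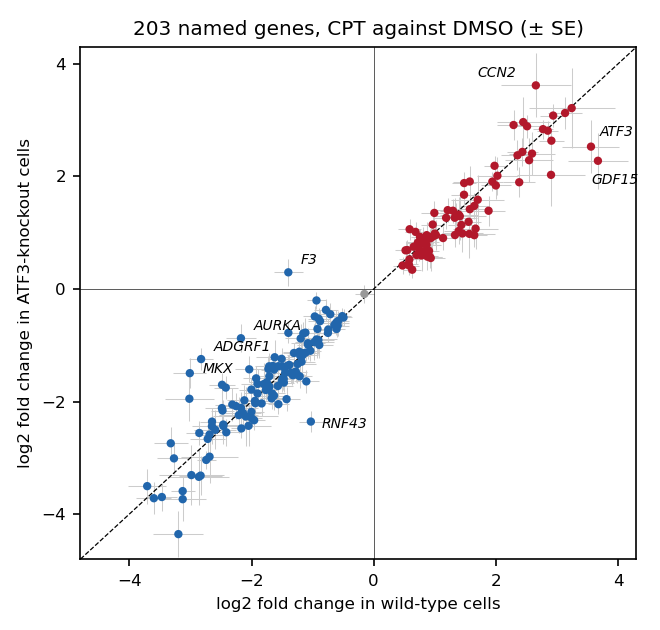
Log2 fold change between CPT and DMSO in WT cells (x axis) and in ATF3-knockout cells (y axis) for the 203 named genes, with SE bars (n = 3 arrays per group), red for genes called higher and blue for genes called lower in WT cells, grey for MDM2; the dashed line marks equal change. F3 is the gene among those called in WT cells that lies across the horizontal axis, at -1.40 in WT and 0.30 in KO cells.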

How the data were processed

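Total RNA of WT and KO HCT116 cells was measured on 12 HumanHT-12 v4 arrays. As deposited, the main table holds the mean bead intensity of each probe, exported from GenomeStudio (version not given in the sources used here) without background subtraction or scaling. Beside each intensity the deposited table gives a detection p-value against negative control beads. A second deposited table holds intensities that the authors background-subtracted and quantile-normalized; its 75th percentile was 55.4 on the arrays of replicate 1 and 31.5 on the others and its lowest value -17, so it served as an alternative only.

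Here the intensities were background-corrected (limma 3.58.1, R 4.3.3, normexp with detection p-values, offset 16), quantile-normalized over the 12 arrays and taken to log2. A probe entered with a detection p-value under 0.01 on 3 or more arrays, which left 17264 of 47300, of which 13735 name 1 gene in the platform annotation. Overall 30098 probes name 1 gene, 8 several and 17194 none, and symbols were updated by RefSeq identifiers (30059 matched, 39 not). The probe with the highest mean stood for each of the 10464 genes, and other probes are given where they differ by over 0.5 (log2). A linear model with 4 group means (8 residual degrees of freedom) was fitted with limma's moderated test, and p-values were adjusted by Benjamini-Hochberg over all genes. Calls use an adjusted p under 0.05. For a gene detected on no array of 1 group and on all 3 of the other, the dim array was set to the higher of its own value and the lowest detected signal, which gives an at-least fold. The difference between KO and WT responses was fitted with the replicate number as a block.

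Arrays with the same replicate number deviated together from their group means (correlations of 0.25 to 0.69 over 18 pairs, against -0.59 to 0.03 for different numbers), so the numbers pair the samples. The main calls, SE and adjusted p do not use this pairing. With it as a block 5161 genes were called in place of 3299. On simulated data over 10464 genes the fit recovered 64.2% of genes changed by 1 and 92.4% of those changed by 2 on the log2 scale, with 1.86% false calls. That share stood for 3 false calls, so far fewer genes were called in the simulation than the 3299 in the data. These figures therefore check the fit and do not give the sensitivity or error rate of the WT comparison. Bead arrays give no read depth, and their number limits the precision. The members and the 36 gene lists were chosen with earlier results of these data known. Named genes were the 15 largest rises and falls detected on all 6 WT arrays with no overlap, the 8 largest bounds each way, ATF3, up to 5 called members of each list with the smallest p (or the 2 with the smallest p where none was called), and genes the study names for CPT. Promoter sequences are RefSeq's, of GRCh38.p14. Alternatives were other scalings, offsets, filters, probe summaries, blocks and sets of arrays, the authors' values, and each array left out in turn.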

Additional observations from a re-analysis of the deposited data

Results flagged for a closer look

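F3, which encodes tissue factor, the cell-surface protein that starts blood clotting, drew attention because every pair of arrays moved down with CPT in WT cells and up in KO cells. The pair differences (log2) were -0.82, -1.64 and -1.73 in WT cells and 0.51, 0.32 and 0.05 in KO cells. The responses differed by 1.69 ± 0.32 (KO minus WT, SE), which did not pass the adjustment over all genes (limma with the replicate block, adjusted p = 0.269).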

How the results depend on the processing

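The 3299 genes called in WT cells became 1339 in the authors' values, 2143 with replicates 2 and 3 only, and 5161 with the replicate block. Leaving out 1 array gave 2333 (without WT CPT replicate 2) to 3609 (without WT CPT replicate 3). Rises alone, 1362, became 2861 under median scaling, 782 in a fit of the 6 WT arrays, 781 where these were also normalized alone, 431 in the authors' values, 2507 with the block, 792 with replicates 2 and 3, 903 without WT DMSO replicate 2 and 847 without WT CPT replicate 2. The difference between KO and WT was 0 genes, 4 under median scaling and 0 to 0 with 1 array left out. Over the named genes, 2622 of 2787 values under the alternatives kept direction and side of the threshold, 163 fell short of it and 2 turned: CLOCK to 0.64 (another probe, among probes detected on all 12 arrays) and LDHA to 0.23 (median scaling). The authors' values ended the calls of 60 named genes, among them BAX, JUNB, YAP1, F3, HK2 and RN7SK. With 1 array left out, 2348 of 2436 values kept both and 88 fell short. The replicate block ended no named call, and list counts that it or median scaling moved by over 1.5 times are given with the lists. The cause was not tested in any of these.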

Other observations

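Probes of 14 genes gave calls in opposite directions, of 572 genes with more than 1 called probe. These were chosen after their values were seen. PHLDA1, an immediate-early gene, changed by -1.05 on the brighter probe and 1.96 on the other, and PCDH7, a cell adhesion gene, by -2.10 and 1.17. BCCIP, a BRCA2-binding protein, changed by -1.55, 0.88 and -0.47 on its called probes. The ubiquitin ligase receptor FBXW7 changed by -1.52 and 1.15 on its called probes. The FBXW7 probe with the highest mean, which stood for the gene, was not called (0.33, adjusted p = 0.141). Which transcripts these probes read was not tested.

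Probes that do not name exactly 1 gene in the annotation leaned the other way from those that do. They name no gene or, in at most 8 cases, several. Of 3529 such probes kept, 501 rose (14.2%) and 306 fell (8.67%), compared with 12.1% and 17.6% of probes that name 1 gene.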
